A study of Mus musculus with 8 samples.

Results

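Transcripts of white and brown fat cells were followed in RNA of white quadriceps, a fast-twitch thigh muscle, from mice that lacked the mitochondrial acyl-CoA thioesterase Acot2 in muscle and from their controls. The transcripts were 10 rows of a deposited table of 54091 genes, of which 27189 were above 0 in any library. White fat was represented by Adipoq, Lep, Cfd, Retn, Plin1, Cidec and Fabp4, and brown or thermogenic fat by Ucp1, Cidea and Elovl3. The rows were chosen by name, with earlier results of these libraries known, so their values are a description and carry no test. All mice were male, 11 to 14 weeks old and fed a diet of 60% fat for 7 days before harvest in the morning. The 4 Cre HFD libraries (numbered 5 to 8) carried Cre driven by the muscle creatine kinase (Ckm) promoter, which deletes Acot2 in muscle fibres, and the 4 Loxp HFD libraries (numbered 1 to 4) carried the Loxp/Loxp genotype. Effects of Cre itself and of the loss of Acot2 cannot be told apart in this design, and Cre activity in fat cells was not tested. The labels do not say whether the libraries of a group came from separate animals, so the errors and p-values given here reflect how far these samples vary, and that may be technical.

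White adipocytes store triglyceride in 1 large lipid droplet and secrete hormones such as adiponectin and leptin, whereas brown adipocytes hold many small droplets and burn fatty acids for heat through the uncoupling protein Ucp1. Skeletal muscle is crossed and covered by fat depots, between its fibres and fascicles and along its surface, and these enter a dissected piece in varying amounts. In bulk RNA, fewer fat cells and less fat RNA per cell cannot be told apart.

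RefSeq promoter sequences (GRCm38.p6, bases before the transcription start) were found for 7 of the 10 genes. The 5 white genes whose levels moved together over the libraries are shown beside Ucp1, which did not follow them, so that the letters before their starts can be compared. The windows are chr16:23146286-23146535 on the plus strand for Adipoq, chr6:29059971-29060219 on the plus strand for Lep, chr8:3655520-3655769 on the plus strand for Retn, chr7:79732904-79733026 on the minus strand for Plin1, chr6:113435761-113436010 on the minus strand for Cidec and chr8:83290098-83290347 on the plus strand for Ucp1. The Plin1 window holds 123 bases, because a longer transcript in the GENCODE annotation starts within the rest. Each is written 5′ to 3′ along the gene, and capitals mark the motif matches.
Adipoq: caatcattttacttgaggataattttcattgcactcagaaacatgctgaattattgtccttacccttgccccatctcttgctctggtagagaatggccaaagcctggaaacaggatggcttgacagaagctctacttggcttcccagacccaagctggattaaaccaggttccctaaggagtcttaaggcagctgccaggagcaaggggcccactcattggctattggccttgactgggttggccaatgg
Lep: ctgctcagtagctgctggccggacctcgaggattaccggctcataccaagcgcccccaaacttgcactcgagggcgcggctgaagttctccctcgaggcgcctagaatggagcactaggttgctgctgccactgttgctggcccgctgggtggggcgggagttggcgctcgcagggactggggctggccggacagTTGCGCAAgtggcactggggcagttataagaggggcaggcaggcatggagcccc
Retn: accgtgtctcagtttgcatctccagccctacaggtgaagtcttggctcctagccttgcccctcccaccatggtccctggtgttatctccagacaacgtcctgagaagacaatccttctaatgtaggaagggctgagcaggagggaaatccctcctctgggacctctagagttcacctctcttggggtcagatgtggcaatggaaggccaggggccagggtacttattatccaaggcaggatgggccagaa
Plin1: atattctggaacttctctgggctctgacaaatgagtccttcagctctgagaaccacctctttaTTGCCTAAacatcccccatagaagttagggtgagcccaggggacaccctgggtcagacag
Cidec: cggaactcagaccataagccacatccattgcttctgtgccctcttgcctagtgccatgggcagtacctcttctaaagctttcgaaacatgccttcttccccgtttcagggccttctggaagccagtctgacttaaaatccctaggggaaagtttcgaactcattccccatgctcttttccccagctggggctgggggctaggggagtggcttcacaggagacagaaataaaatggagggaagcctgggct
Ucp1: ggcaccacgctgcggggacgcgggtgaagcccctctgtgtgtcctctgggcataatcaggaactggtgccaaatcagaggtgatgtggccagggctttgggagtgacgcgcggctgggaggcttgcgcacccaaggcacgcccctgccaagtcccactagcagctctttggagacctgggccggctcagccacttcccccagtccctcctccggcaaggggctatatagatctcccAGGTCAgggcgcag

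Searched on both strands were AGGTCA (a nuclear receptor half-site, part of the elements bound by PPAR receptors), TTGCNNAA (a C/EBP-type site), TATAAA (the TATA box) and TGACGT (the core of a cAMP response element). Lep held the C/EBP-type match TTGCGCAA at 55 to 48 bases before its RefSeq start, and Plin1 held TTGCCTAA at 187 to 180 bases before its RefSeq start. Ucp1 held AGGTCA at 14 to 9 bases before the start. The windows of Adipoq, Retn, Cidec and Cfd held none of these letters. Matches of this kind are common: of 27025 promoters, 9.55% held TTGCNNAA and 13.8% held AGGTCA within 250 bases, and 5.07% held TTGCNNAA within a window of 123 bases. None of the 4 motifs was found in the windows of all 5 white genes that moved together.

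Depth was 55284006 to 109101280 reads per library, and values below are normalized counts, that is reads divided by a size factor of the library. The floor of 3 reads corresponded to a normalized count of 2.04 to 3.87. Acot2, the deleted gene, was at 324.8, 273.4, 256.4 and 354.0 in Cre HFD 5 to 8, against 2179, 3348, 4165 and 2166 in Loxp HFD 1 to 4, so every library matched its label. It was the 1 gene of 15657 tested (0.00639%) that passed an adjusted p of 0.05 in limma, and voom on the recovered reads also called 1. That count rests on single libraries: it was 2048 without Loxp HFD 2, 1720 without Loxp HFD 1 and 2 without Cre HFD 6. Without adjustment, 2135 genes (13.6%) had higher and 2080 (13.3%) lower estimates in Cre HFD at a p under 0.05. Cre HFD 8 stood apart in heart transcripts, and slow-fibre transcripts were high in Cre HFD 6 and Loxp HFD 3, as given with the brown genes.

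Among the secreted products of white fat, Adipoq, which encodes the insulin-sensitizing hormone adiponectin, was at 3843, 1918, 1233 and 1774 in Cre HFD 5 to 8, against 1191, 3363, 1359 and 1794 in Loxp HFD 1 to 4. The highest library of each group, Cre HFD 5 and Loxp HFD 2, exceeded the other 6 libraries, and the groups overlapped. Lep, which encodes the satiety hormone leptin, was at 1918, 662.9, 390.9 and 285.7 in Cre HFD 5 to 8, against 382.0, 1408, 640.7 and 623.9 in Loxp HFD 1 to 4. Both of those libraries again led, and the lowest value was that of Cre HFD 8. Retn, which encodes the adipocyte hormone resistin of mice, was at 2065, 1100, 717.1 and 874.1 in Cre HFD 5 to 8, against 1013, 1656, 418.5 and 651.0 in Loxp HFD 1 to 4. Cre HFD 5 and Loxp HFD 2 led here too, and Loxp HFD 3 was lowest. Cfd, which encodes adipsin (complement factor D, a protease of the alternative complement pathway), was at 4577, 5676, 4326 and 11475 in Cre HFD 5 to 8, against 6802, 4251, 2097 and 5523 in Loxp HFD 1 to 4. Its order was another one, with Cre HFD 8 and Loxp HFD 1 highest and the libraries richest in Adipoq below both.

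Of the genes of the lipid droplet, Plin1, which encodes the perilipin that coats the droplet and gates lipolysis, was at 3733, 1553, 807.8 and 1417 in Cre HFD 5 to 8, against 1392, 2498, 1205 and 1375 in Loxp HFD 1 to 4. Cidec, whose product fuses droplets into large ones, was at 3598, 1090, 769.2 and 1220 in Cre HFD 5 to 8, against 815.7, 2507, 828.8 and 894.7 in Loxp HFD 1 to 4. Both droplet genes had Cre HFD 5 highest, Loxp HFD 2 next and Cre HFD 7 lowest, and their groups overlapped. Fabp4, which encodes a fatty acid carrier of adipocytes that capillary endothelium and macrophages also make, was at 31603, 25314, 21174 and 35872 in Cre HFD 5 to 8, against 17901, 24555, 13999 and 12305 in Loxp HFD 1 to 4. It came closest to a split by genotype: only Loxp HFD 2 overlapped, lying above Cre HFD 7. Together the 7 white genes made up 0.0405% to 0.0743% of the normalized counts in Cre HFD and 0.0291% to 0.0570% in Loxp HFD, most of it Fabp4.

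Ucp1, which encodes the proton channel of brown fat mitochondria, was at 1458, 16.8, 0 and 885.1 in Cre HFD 5 to 8, against 12.7, 12.1, 133.4 and 0 in Loxp HFD 1 to 4. These values rest on 1504, 13, 0 and 725 reads in Cre HFD 5 to 8, against 12, 12, 161 and 0 reads in Loxp HFD 1 to 4. Thus 2 Cre HFD libraries carried Ucp1 at 885.1 or above, 1 Loxp HFD library carried a lower amount, and the other 5 were at 16.8 or less. The exact Poisson 95% interval was 1385 to 1534 in Cre HFD 5, 821.8 to 951.9 in Cre HFD 8 and 113.6 to 155.7 in Loxp HFD 3. For the libraries at 0 reads, the limit that a count of 0 allows, taken as 3 reads, was 3.13 in Cre HFD 7 and 2.04 in Loxp HFD 4. Intervals and limits cover counting error only. Cidea, which encodes a droplet protein that marks brown and beige fat in mice, was at 927.9, 181.9, 137.6 and 858.2 in Cre HFD 5 to 8, against 129.8, 111.5, 252.8 and 116.1 in Loxp HFD 1 to 4. The same 3 libraries were highest and in the same order as for Ucp1, but the other 5 kept a level of 111.5 to 181.9. Elovl3, which encodes a fatty acid elongase induced by cold in brown fat, lay near the detection limit, at 12.6, 10.3, 7.30 and 17.1 in Cre HFD 5 to 8, against 12.7, 6.03, 13.3 and 4.07 in Loxp HFD 1 to 4. That is 6 to 16 reads in every library, and the groups overlapped over most of their range.

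**Figure D1:**
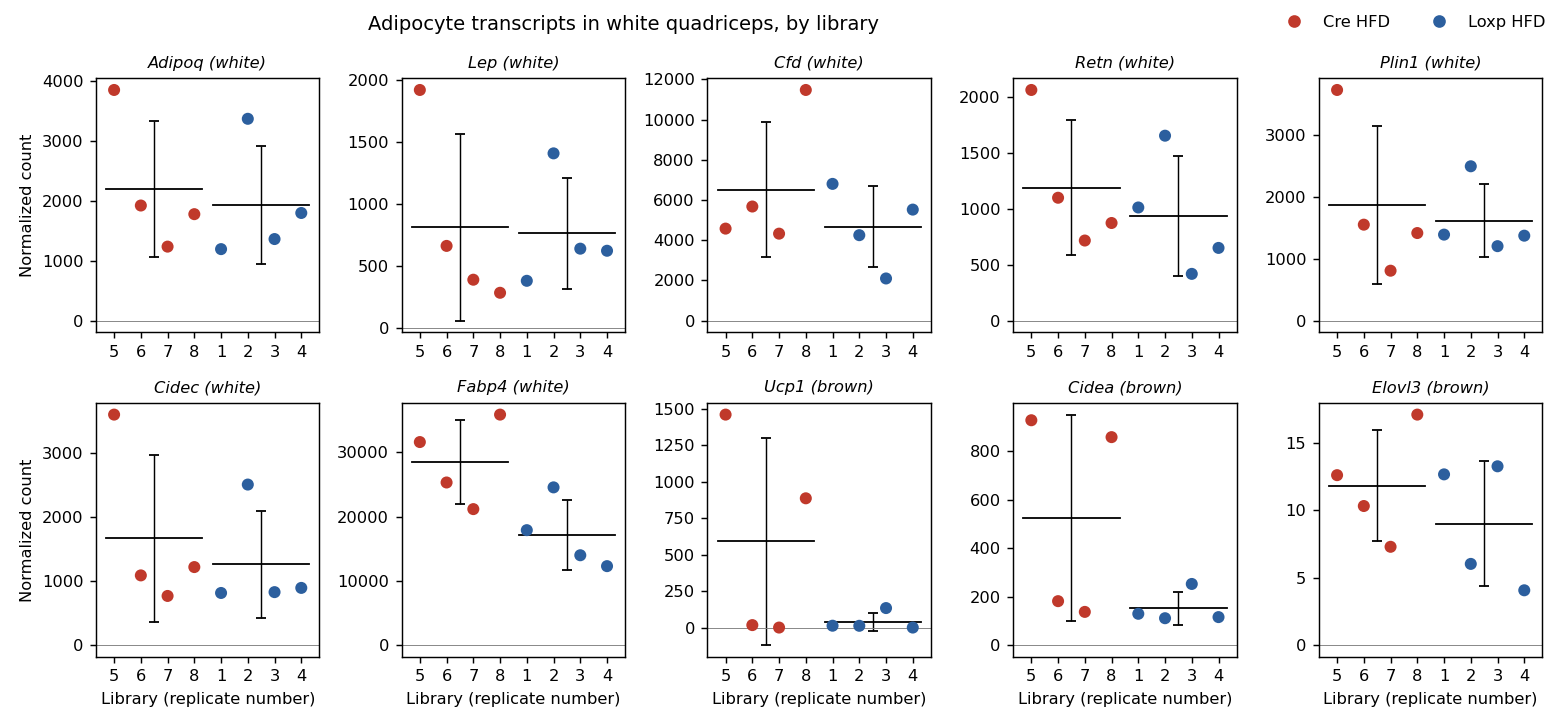
Normalized count (linear axes, a scale of its own in each panel) of the 10 fat transcripts in each library, Cre HFD 5 to 8 in red and Loxp HFD 1 to 4 in blue; lines are group means and bars are SD over 4 libraries. Adipoq, Lep, Retn, Plin1 and Cidec peak in Cre HFD 5 and Loxp HFD 2, whereas Ucp1 and Cidea peak in Cre HFD 5 and Cre HFD 8.

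Levels were also compared between genes per kb of the longest coding transcript, as means over the 8 libraries. Fabp4 was the most abundant at 25491 normalized counts per kb, ahead of Cfd at 6064 and Adipoq at 1594. Retn at 932.3, Cidec at 851.9 and Plin1 at 620.3 per kb followed, and Lep reached 242.1 per kb. Of the brown genes, Cidea was at 304.5, Ucp1 at 192.4 and Elovl3 at 5.54 per kb. The ranges per kb over the libraries overlapped for every pair of neighbours in this order except Fabp4 and Cfd.

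Between the groups, limma called 0 of the 10 genes at an adjusted p of 0.05, against 0.00639% of all genes, and 1 of them, Fabp4, was under 0.05 without adjustment. At that unadjusted p, 13.6% of all genes tested had higher and 13.3% lower estimates. None of the 10 had values without overlap between the groups, against 13.1% of all genes tested, and all 10 passed the filter on low values (a mean normalized count of 10). Estimates, as the log2 difference Cre HFD minus Loxp HFD, were above 0 for 9 genes and below 0 for Lep, with a median of 0.42 over the 10, 0.32 over the white and 1.38 over the brown genes; the median of all genes tested was 0.0026. Without Cre HFD 5 alone, the estimates of Adipoq (-0.13), Plin1 (-0.35) and Cidec (-0.14) were below 0 too. The difference was largest relative to its error for Fabp4, at 28491 ± 6526 in Cre HFD and 17190 ± 5441 in Loxp HFD (SD, n = 4 each), a log2 difference of 0.75 (SE 0.21). Fabp4 passed the adjusted threshold in 2 of 20 alternatives, without Loxp HFD 2 (0.94) and without both Loxp HFD 2 and Cre HFD 5 (0.88). Calls over all genes rose in both settings too, to 2048 genes without Loxp HFD 2, from 1 in the main fit. The Fabp4 difference was smaller, at 0.41 without Loxp HFD 3 and 4 and at 0.48 without Cre HFD 5 and 8.

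The hormone genes of white fat differed between the groups by less than their spread. Adipoq averaged 2192 ± 1140 in Cre HFD and 1927 ± 990.5 in Loxp HFD (SD, n = 4 each), a log2 difference of 0.18 (SE 0.41). Lep averaged 814.3 ± 752.6 in Cre HFD and 763.5 ± 445.4 in Loxp HFD (SD, n = 4 each), with a log2 difference of -0.15 (SE 0.65). Leaving out 1 library at a time moved the Adipoq difference between -0.13 and 0.49 and the Lep difference between -0.70 and 0.22. Plin1 had a log2 difference of 0.05 (SE 0.44), and -0.35 to 0.38 with 1 library left out. Cidec had one of 0.32 (SE 0.56), and -0.14 to 0.71 with 1 library left out. The remaining white genes had log2 differences of 0.41 (SE 0.47) for Retn and 0.49 (SE 0.43) for Cfd.

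For Ucp1 and Cidea the group means stood further apart than for the white genes, with a wide spread between libraries. Ucp1 averaged 590.0 ± 711.2 in Cre HFD and 39.5 ± 62.9 in Loxp HFD (SD, n = 4 each), a log2 difference of 2.48 (SE 2.68). With 1 library left out at a time it was 1.01 to 4.51. Without Cre HFD 5 and 8 the Ucp1 difference was -1.56, a turn in direction. Cidea averaged 526.4 ± 424.7 in Cre HFD and 152.5 ± 67.3 in Loxp HFD (SD, n = 4 each), with a log2 difference of 1.38 (SE 0.67) that became 0.14 without those libraries. Elovl3 averaged 11.8 ± 4.13 in Cre HFD and 9.01 ± 4.64 in Loxp HFD (SD, n = 4 each), a log2 difference of 0.43 (SE 0.58). Cre HFD 5 and 8 were left out after they were seen to be highest, and Loxp HFD 3 was kept, so lower differences were bound to follow. The high Ucp1 and Cidea values of Cre HFD lay in 2 of its 4 libraries.

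The white genes split into 5 that moved together, a set chosen after their values were seen, and 2 that did not. Over the 8 libraries, Adipoq, Lep, Retn, Plin1 and Cidec had Pearson r of 0.63 to 0.97 on the log2 scale in their 10 pairs, with a median of 0.85. Adipoq and Cidec were the closest pair, with r = 0.97 (Spearman rho 0.90), and r = 0.82 without Cre HFD 5 and Loxp HFD 2, the libraries farthest from the median. The likeness of Adipoq to Lep (r = 0.87) and to Retn (r = 0.80) rested on those libraries, since without them r was 0.28 and 0.24. Fabp4 followed Adipoq less (r = 0.51), and Cfd did not follow it (r = -0.0038). All such values are descriptions over 8 libraries that share their library preparation and size factors.

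**Figure D2:**
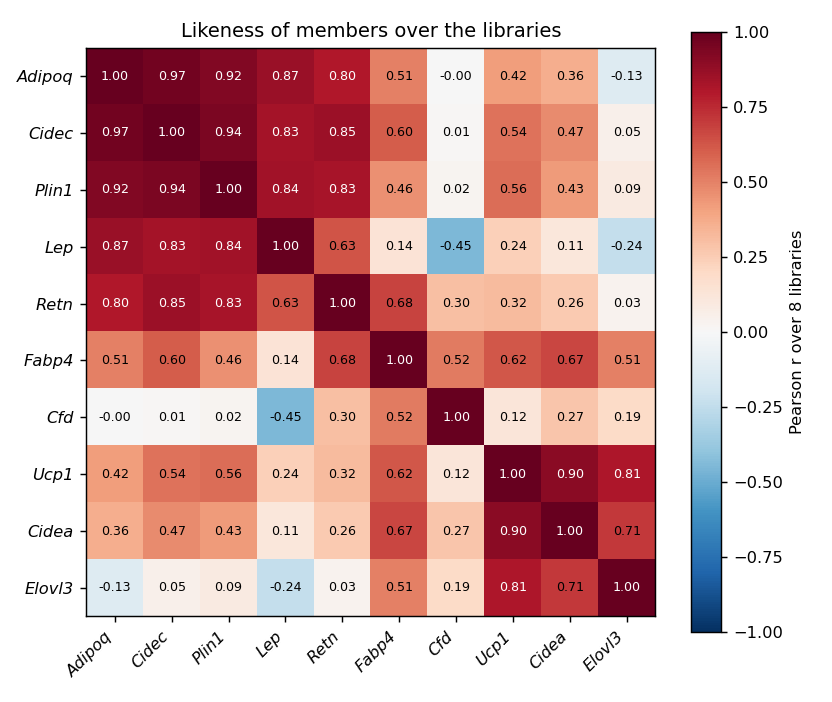
Pearson r between each pair of the 10 fat transcripts over 8 libraries, on log2(normalized count + 1), with red for positive and blue for negative values. Adipoq, Cidec, Plin1, Lep and Retn form 1 block (r of 0.63 to 0.97) and Ucp1, Cidea and Elovl3 another (0.71 to 0.90), while Cfd lies outside the white block. Elovl3 rests on 6 to 16 reads per library.

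Brown and white transcripts did not share 1 order. Ucp1 had r = 0.90 with Cidea and 0.81 with Elovl3, and still 0.72 and 0.76 without Cre HFD 5 and 8. Elovl3 held only 6 to 16 reads per library, so much of its variation may be counting error. With the 5 coherent white genes, Ucp1 had r of 0.24 to 0.56, and the 21 white-with-brown pairs had a median r of 0.27. A white score, the mean deviation of the 7 white genes from their own means on the log2 scale, was 0.99, 0.07, -0.52 and 0.05 in Cre HFD 5 to 8, against -0.28, 0.63, -0.65 and -0.29 in Loxp HFD 1 to 4. The brown score of Ucp1, Cidea and Elovl3 was 2.66, -0.33, -1.99 and 2.52 in Cre HFD 5 to 8, against -0.52, -0.94, 0.91 and -2.31 in Loxp HFD 1 to 4. Ucp1 weighed most in it, with a log2 SD over the libraries of 3.99, against 1.25 for Cidea and 0.62 for Elovl3. The low scores of Cre HFD 7 and Loxp HFD 4 came mainly from 0 Ucp1 reads. Cre HFD 5 was high on both scores. Loxp HFD 2 was the second highest on white and below average on brown. Cre HFD 8 was near the average on white and almost as high as Cre HFD 5 on brown, and Loxp HFD 3 was the lowest on white and the third highest on brown. The white score includes Cfd and Fabp4, both highest in Cre HFD 8. Over the 5 coherent white genes alone, Cre HFD 8 was at -0.31 and Loxp HFD 3 at -0.53, and Cre HFD 7 was lowest at -0.68. The scores had r = 0.46 (rho 0.40) over 8 libraries, 0.34 without Cre HFD 5 and Loxp HFD 2 and 0.09 without Cre HFD 5 alone.

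**Figure D3:**
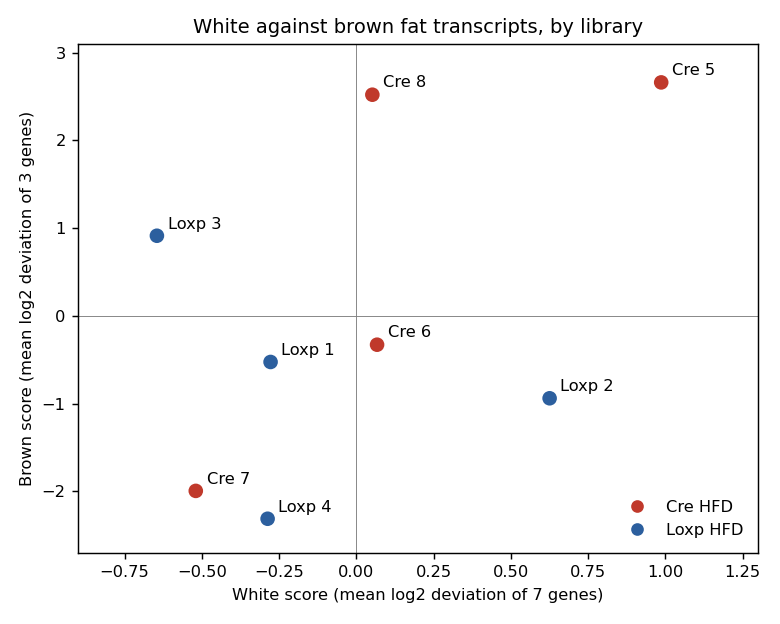
White score (x axis, mean log2 deviation of 7 genes) against brown score (y axis, mean log2 deviation of 3 genes) in each library, Cre HFD in red and Loxp HFD in blue. Ucp1 weighs most in the brown score. Cre HFD 8 (0.05 and 2.52) and Loxp HFD 3 (-0.65 and 0.91) hold brown signal without raised white signal, and Loxp HFD 2 (0.63 and -0.94) the reverse.

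Ratios to Adipoq show in which libraries the white transcripts kept a fixed proportion. Plin1 per Adipoq lay between 0.655 and 0.971 in Cre HFD and between 0.743 and 1.17 in Loxp HFD, and its slope on Adipoq on the log2 scale was 0.98 (SE 0.17). Cidec had a slope of 1.27 (SE 0.14) and Retn one of 0.93 (SE 0.29). Lep per Adipoq was 0.499, 0.346, 0.317 and 0.161 in Cre HFD 5 to 8, against 0.321, 0.419, 0.471 and 0.348 in Loxp HFD 1 to 4. In Cre HFD 8 leptin was thus low for its Adipoq, below the other 7 libraries. Cfd per Adipoq was 1.19, 2.96, 3.51 and 6.47 in Cre HFD 5 to 8, against 5.71, 1.26, 1.54 and 3.08 in Loxp HFD 1 to 4, with a slope of -0.0042 (SE 0.45). Cfd thus did not follow Adipoq, although its own values ranged over 2097 to 11475. Fabp4 lay between, with a slope of 0.43 (SE 0.30).

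Cre HFD 8 had another low ratio among fat genes measured beside the 10. Scd1, the delta-9 desaturase that makes oleic acid in fat and other tissues, was at 17.8, 13.1, 11.2 and 3.50 per Adipoq in Cre HFD 5 to 8, against 13.6, 15.2, 13.5 and 10.9 in Loxp HFD 1 to 4. Nnat was lowest there too, at 0.0674 per Adipoq, and so was Serpina3c, at 0.0571. Adrb3, the beta-3 adrenergic receptor through which noradrenaline starts lipolysis in both kinds of fat, was instead highest for its Adipoq in Cre HFD 8 (0.160) and Cre HFD 5 (0.147), against 0.0541 to 0.0833 in Loxp HFD. Scd1, Nnat, Serpina3c and Adrb3 were chosen after their values were seen. Of the remaining fat genes set against Adipoq, Thrsp was also highest in Cre HFD 8 (2.42). Hcar1 (0.0420) and Pck1 (0.888) were exceeded there only by Cre HFD 5, and Sncg and Cebpa were lowest in Loxp HFD 4. Fat genes were thus not low in general for their Adipoq in Cre HFD 8. Ucp1 per Adipoq was 0.379 in Cre HFD 5 and 0.499 in Cre HFD 8, against 0.0982 in Loxp HFD 3.

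**Figure D4:**
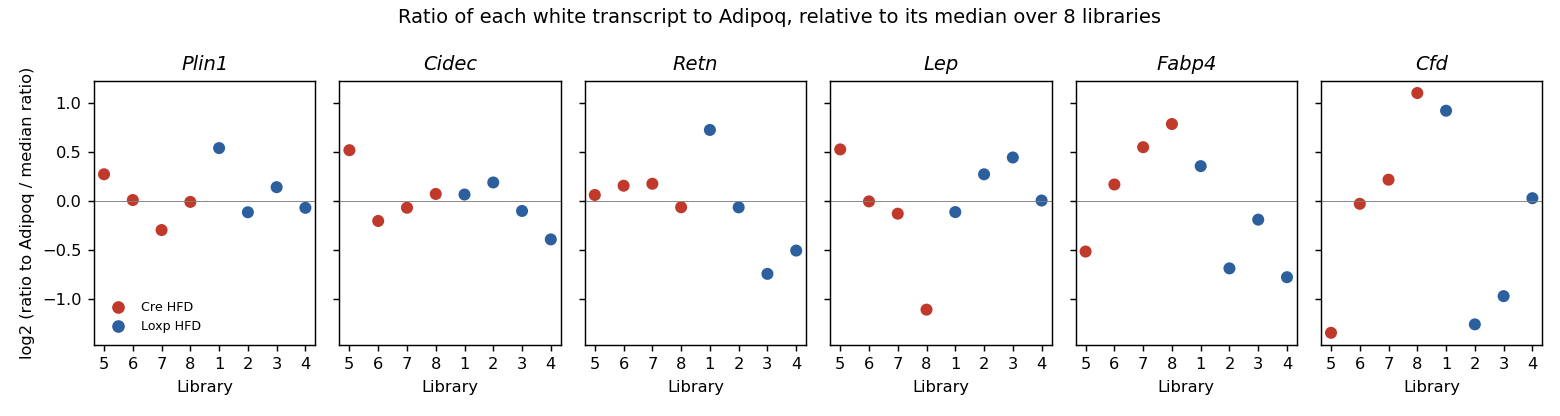
Ratio of 6 white transcripts to Adipoq in each library, as log2 of the ratio over its median of 8 libraries, Cre HFD in red and Loxp HFD in blue. Plin1 and Cidec stay close to the line, Lep drops in Cre HFD 8 (0.161 per Adipoq), and Cfd spans 1.19 to 6.47.

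Outside the 10, the genes closest to the white score over the 8 libraries were Cdo1 (r = 0.99), Csad (0.98), Pygl (0.98), Orm1 (0.97), Lcp2 (0.96), Cd1d1 (0.96), Vnn3 (0.96) and Susd3 (0.95). Cdo1, which encodes the cysteine dioxygenase that opens the route to taurine, was at 2531, 1131, 748.4 and 1139 in Cre HFD 5 to 8, against 1030, 1841, 708.6 and 875.0 in Loxp HFD 1 to 4. Csad encodes the decarboxylase of the same route, Pygl the liver form of glycogen phosphorylase and Orm1 an acute-phase plasma protein. Closest to Ucp1 were Layn (r = 0.98), Abca7 (0.93), Opn3 (0.92), Glis2 (0.91), Ppp1r21 (0.91), Cdc42ep1 (0.90), Pnldc1 (0.89) and Sox7 (0.89). Both sets are the highest among 15657 genes over 8 libraries, so high r values were bound to appear. Of all genes tested, 0.766% had r over 0.8 with the white score and 0.307% with Ucp1. Layn, which encodes a hyaluronan receptor, was at 89.2, 64.5, 51.1 and 84.2 in Cre HFD 5 to 8, against 64.4, 70.3, 72.9 and 50.9 in Loxp HFD 1 to 4. Its range was narrow beside that of Ucp1, so that a high r here joins genes of very different amplitude. Opn3, an opsin, was at 58.2, 25.8, 19.8 and 37.8 in Cre HFD 5 to 8, against 30.6, 20.1, 34.0 and 14.3 in Loxp HFD 1 to 4.

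Some further fat-cell markers followed the white score and others did not. Of 28 such genes, all tested, 10 (35.7%) had r over 0.8 with the white score, against 0.766% of all genes, and 0 had r over 0.8 with Ucp1, against 0.307% of all genes. Mrap, an accessory protein of melanocortin receptors, had r = 0.94 with the white score, whereas Plin4 had -0.0046, Agt, angiotensinogen, -0.036 and Itih5 -0.34, genes chosen after their values were seen. Cre HFD 5 was the highest library for 19 of the 28 (67.9%), against 11.2% of all genes. For 13 of the 28, the 2 highest libraries were Cre HFD 5 and Loxp HFD 2, against 2.82% of all genes. Between the groups limma called 0 of the 28. Without adjustment 4 had higher and 1 lower estimates, against 13.6% and 13.3% of all genes tested, and the median log2 difference was 0.19. The same shares of all genes apply to the counts without adjustment in the lists below. The 3 genes of smallest unadjusted p were Adig, a small protein of adipocyte differentiation (0.68, SE 0.20, adjusted p = 0.0810), Aqp7, the glycerol channel of fat (0.46, SE 0.15, adjusted p = 0.0881), and Plin4, a perilipin that muscle also makes (-0.28, SE 0.12, adjusted p = 0.159).

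Genes of lipogenesis and triglyceride synthesis (15 tested) had 0 calls, 0 higher and 3 lower estimates without adjustment and a median of -0.13, with 4 at r over 0.8 with the white score. Gpam, the first acyltransferase of glycerolipid synthesis, had a log2 difference of -1.07 (SE 0.32, adjusted p = 0.0861 by limma), with 3727, 5448, 3457 and 4438 in Cre HFD 5 to 8, against 5307, 6286, 15210 and 12040.3 in Loxp HFD 1 to 4. Gpam did not follow the white score (r = -0.45). Acaca, acetyl-CoA carboxylase, was at -0.53 (SE 0.23, adjusted p = 0.170), and Lpin1, a phosphatidate phosphatase, at -0.39 (SE 0.13, adjusted p = 0.0977). Genes of lipolysis and its control (12 tested) had 0 calls, 4 higher and 1 lower estimates without adjustment and a median of 0.41. Mgll, monoglyceride lipase, was at 0.54 (SE 0.17, adjusted p = 0.0861), G0s2, an inhibitor of adipose triglyceride lipase, at 0.51 (SE 0.21, adjusted p = 0.143), and Abhd5, the activator of that lipase, at -0.53 (SE 0.14, adjusted p = 0.0796). Among receptors of the fat hormones and complement partners of adipsin (7 of 8 tested), 0 were called, with 1 higher and 2 lower estimates without adjustment. Those 3 were C3ar1, the C3a receptor (0.75, SE 0.26, adjusted p = 0.0984), Adipor2, an adiponectin receptor (-0.40, SE 0.12, adjusted p = 0.0859), and Cdh13, T-cadherin, which binds adiponectin (-0.28, SE 0.12, adjusted p = 0.143).

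Other markers of brown and beige fat were divided. Of 16, 13 passed the filter, limma called 0, and 1 higher and 1 lower estimate were under 0.05 without adjustment, with a median of 0.18. Cpn2, a carboxypeptidase subunit that did not pass the filter, was at 44.6 in Cre HFD 5, 12.2 in Cre HFD 8 and 0 in Cre HFD 6 and 7, against 1 read in Loxp HFD 3 and 0 in the other Loxp HFD libraries. Otop1, a proton channel, had r = 0.88 with Ucp1 and was at 158.0, 43.9, 24.0 and 80.6 in Cre HFD 5 to 8, against 68.6, 74.4, 63.8 and 16.3 in Loxp HFD 1 to 4. Kcnk3, a potassium channel of brown fat, was at 262.8, 135.4, 87.5 and 201.4 in Cre HFD 5 to 8, against 99.2, 98.5, 72.9 and 65.2 in Loxp HFD 1 to 4 (log2 difference 0.93, SE 0.31, adjusted p = 0.0968). Of the 13 tested, 1 (7.69%), Otop1, had r over 0.8 with Ucp1, against 0.307% of all genes, and the median r was 0.27. Prdm16 (r = 0.087) and Ebf2 (r = -0.12) did not follow Ucp1. Cpn2, Otop1 and Kcnk3 were highest in Cre HFD 5 and 8, the libraries with the most Ucp1. Cpn2, Otop1, Prdm16 and Ebf2 were chosen after their values were seen. Zic1, a transcription factor of the classical brown depot, was instead at 60.1, 104.5, 67.7 and 63.5 in Cre HFD 5 to 8, against 98.1, 82.4, 130.9 and 127.6 in Loxp HFD 1 to 4 (log2 difference -0.57, SE 0.26, adjusted p = 0.181). It was lowest in Cre HFD 5 and 8, and nearly as low in Cre HFD 7, which had no Ucp1 read. Zic1 was highest in Loxp HFD 3, which also held some Ucp1, so it had no fixed relation to Ucp1. Lhx8, of the same depot, was at 3.88 in Cre HFD 5 and 1.29 in Cre HFD 6 and 0 in the rest. Cited1, a beige fat marker, was at 72.7, 21.9, 70.9 and 103.8 in Cre HFD 5 to 8, against 39.0, 38.2, 9.95 and 48.2 in Loxp HFD 1 to 4 (log2 difference 0.98, SE 0.54, adjusted p = 0.253). Oxidative genes that brown fat shares with muscle (13 of 14 tested) had 0 calls, 3 higher and 2 lower estimates without adjustment and a median of 0.05. Cox7a1 (0.65, SE 0.20, adjusted p = 0.0810) and Cox8b (0.59, SE 0.19, adjusted p = 0.0924), subunits of cytochrome oxidase, and Cpt1b, the carnitine palmitoyltransferase of muscle (-1.42, SE 0.40, adjusted p = 0.0796), were the 3 of smallest p. The Cpt1b row was low for a muscle enzyme, at 40.7, 21.9, 11.5 and 34.2 in Cre HFD 5 to 8, against 50.7, 58.3, 82.1 and 84.2 in Loxp HFD 1 to 4. Ckmt2 of the same list averaged 171146 in Cre HFD and 124137 in Loxp HFD. Whether the Cpt1b row holds all reads of that gene was not tested.

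Heart transcripts moved with Ucp1 in 1 library. Myl7, the atrial light chain, was at 1124 in Cre HFD 8 and at most 4.14 elsewhere, and Nppa, atrial natriuretic peptide, was at 1648 there and at most 6.11 elsewhere. Tnni3, cardiac troponin I, was at 1281 in Cre HFD 8 and at most 81.3 elsewhere. The summed level of the 18 heart markers was 9537 to 77976 in Cre HFD and 10164 to 30192 in Loxp HFD, of which 13 were tested and 0 called, with a median log2 difference of 0.76 that became 0.16 without Cre HFD 8. Most of the sum was Actc1, at 64342 in Cre HFD 8. Actc1 was also high in Cre HFD 7 (35902) and Loxp HFD 4 (28638), where Myl7 was at 0 and 0.679, so the sum does not follow Myl7. Cre HFD 5, the library with the most Ucp1, had Myl7 at 0 and Nppa at 0.970. The part of these transcripts in the Ucp1 of Cre HFD 8 was not tested. Slow-fibre genes, as a mean log2 deviation of 9 markers, were highest in Loxp HFD 3 (1.26), which held some Ucp1, and next in Cre HFD 6 (1.05), which held little. Myh7, the slow myosin heavy chain, was at 15188 in Loxp HFD 3 and 6883 in Cre HFD 6, and the part of slow muscle in the Ucp1 of Loxp HFD 3 was not tested. By the smallest p, Tbx5 (0.73, SE 0.43, adjusted p = 0.290), Myl4 (1.03, SE 0.61, adjusted p = 0.315) and Tnni3 (1.82, SE 1.11, adjusted p = 0.321) led the heart list. Skin markers were divided. Krt1 and Awat1 were at 0 in all 8 libraries, Krt14 at 0.970 or less and Krt5 at 4.22 or less. Krt10, a keratin, was at 289.9 to 454.1 in Cre HFD and 150.8 to 298.4 in Loxp HFD, and Trp63, a transcription factor of epithelial stem cells, at 192.8 to 363.6 in Cre HFD and 303.9 to 472.5 in Loxp HFD. Mc5r, a melanocortin receptor, was at 26.9 to 109.6 in Cre HFD and 36.9 to 194.2 in Loxp HFD. Of 11 skin genes 4 were tested and 0 called, with 1 higher estimate without adjustment (Krt10, 0.70, SE 0.23, adjusted p = 0.0902) and Mc5r (-1.05, SE 0.50, adjusted p = 0.194) and Trp63 (-0.29, SE 0.22, adjusted p = 0.408) next.

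**Figure D5:**
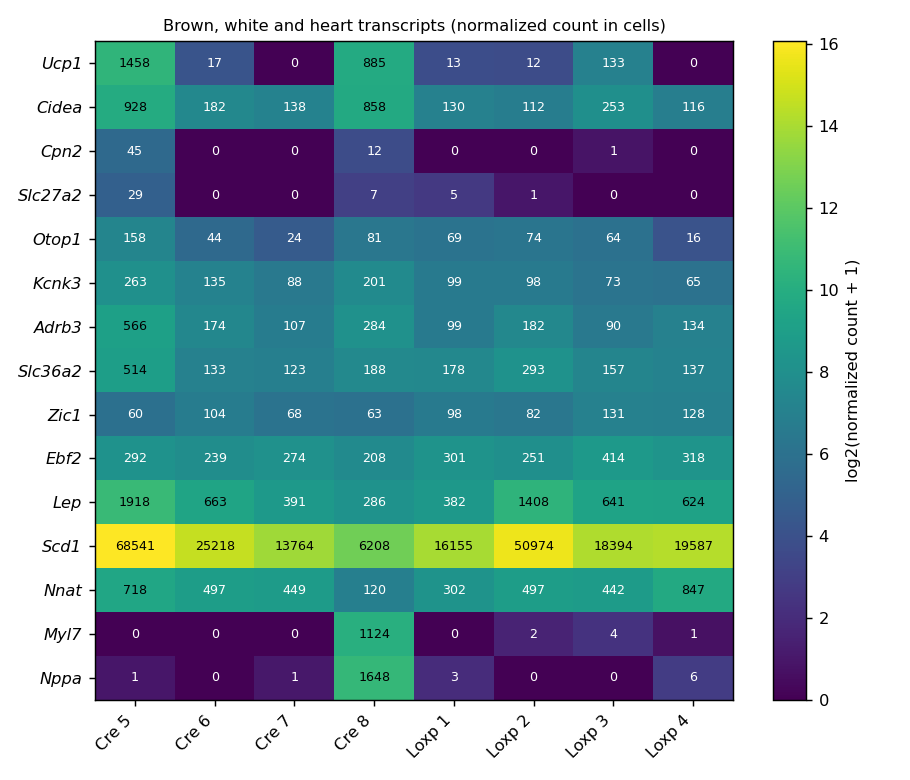
Normalized counts (numbers in the cells) and log2(normalized count + 1) (colour) of brown, white and heart transcripts in each library, Cre HFD 5 to 8 left and Loxp HFD 1 to 4 right. Ucp1 and Cidea are high in Cre HFD 5 and 8, Myl7 and Nppa in Cre HFD 8 alone, and Lep, Scd1 and Nnat are lowest in Cre HFD 8. The white rows are a selection, and Scd1 and Nnat were chosen after their values were seen. Cfd (11475), Fabp4 (35872) and Thrsp (4290), not shown, were instead highest in Cre HFD 8.

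Other cells that make Fabp4 or surround fat were set beside these values. Of 11 macrophage markers, limma called 0, and 7 had higher and 0 lower estimates without adjustment (median 0.50), against 13.6% and 13.3% of all genes. Their summed level was 12641 to 20055 in Cre HFD and 8479 to 12485 in Loxp HFD. The 3 of smallest p were C1qa (1.10, SE 0.22, adjusted p = 0.0796) and C1qc (0.78, SE 0.22, adjusted p = 0.0796), chains of complement C1q, and Lyz2, a lysozyme (0.64, SE 0.17, adjusted p = 0.0796). Of 11 markers of fibro-adipogenic progenitors, the stromal cells from which muscle fat arises, 0 were called, with 6 higher and 0 lower estimates without adjustment (median 0.34) and sums of 166558 to 199243 in Cre HFD and 126995 to 168482 in Loxp HFD. The 3 of smallest p there were Clec3b (0.81, SE 0.16, adjusted p = 0.0796), Gsn (0.44, SE 0.13, adjusted p = 0.0796) and Ly6a (0.54, SE 0.17, adjusted p = 0.0859). The 8 endothelial markers had 0 calls, 1 higher estimate without adjustment and a median of -0.13, with sums of 21448 to 25820 in Cre HFD and 22280 to 27992 in Loxp HFD. Emcn, an endothelial sialomucin, had the smallest p of them (0.35, SE 0.13, adjusted p = 0.119), ahead of Tie1 (0.25, SE 0.13, adjusted p = 0.219) and Cdh5 (-0.22, SE 0.13, adjusted p = 0.274). None of these 3 lists had a gene with r over 0.8 to the white score. Their part in the Fabp4 difference was not tested.

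Markers of the muscle's own and remaining cells had 0 calls as well. Of 9 fast-fibre genes 3 had higher and 2 lower estimates without adjustment (median 0.19), and of 9 slow-fibre genes 0 did (median 0.27, and -0.16 to 0.72 with 1 library left out, the lowest without Loxp HFD 4). Leading by p were Pvalb (0.81, SE 0.21, adjusted p = 0.0796), Tnni2 (0.60, SE 0.17, adjusted p = 0.0810) and Mylpf (0.48, SE 0.18, adjusted p = 0.115) for fast fibres and Myh2 (-0.37, SE 0.23, adjusted p = 0.318), Tnnc1 (0.71, SE 0.75, adjusted p = 0.572) and Tnni1 (0.63, SE 0.72, adjusted p = 0.606) for slow fibres. Of 7 Schwann cell genes 0 had higher and 1 a lower estimate (median -0.15), led by Ncam1 (-0.46, SE 0.21, adjusted p = 0.178), Mbp (-0.28, SE 0.20, adjusted p = 0.363) and Pmp22 (0.15, SE 0.12, adjusted p = 0.427). Of 5 tendon genes 2 had higher estimates (median 0.11), led by Scx (0.60, SE 0.16, adjusted p = 0.0796), Tnmd (0.57, SE 0.24, adjusted p = 0.149) and Thbs4 (0.11, SE 0.17, adjusted p = 0.695). Of 5 erythroid genes 1 had a higher estimate (median 0.29), led by Hba-a2 (0.98, SE 0.30, adjusted p = 0.0902), Hbb-bt (0.64, SE 0.30, adjusted p = 0.203) and Alas2 (-0.29, SE 0.18, adjusted p = 0.314).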

How the data were processed

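The authors deposited 1 table of normalized expression on a log2 scale, with 1 column per library; the tools named, per the submitters' processing notes, are DESeq2, HTSeq, STAR, FastQC and cutadapt, with GRCm38 as the build. Tool versions and the strand setting were not given in the sources used here. With the log2 undone and 1 subtracted, 100% of low values were whole multiples of 1 step per library (0.679 to 1.29) within 0.1 of a read, so reads were recovered; depth was 55284006 to 109101280 reads. All 8 columns were used and 0 sample columns left out. Libraries of a group differed beyond sampling noise (chi-square per gene of 32.7 to 242 over 12 pairs) and counted separately.

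The groups were compared over 15657 genes (mean normalized count 10 or more) by limma 3.58.1 (trend, robust; R 4.3.3) on log2(normalized count + 1), with Benjamini-Hochberg adjustment at 0.05; the fit was checked on simulated data. A count model had been planned had the values been raw counts. Fold changes on this scale understate changes of low genes. Lengths, positions and overlaps came from GENCODE vM21 (GRCm38), and no gene of the 10 shared over 0.506% of its exon bases with another gene (Elovl3 with Pitx3, other strand). The genes, the gene lists and some alternatives were chosen with earlier results of these data known. Named beside the 10 were the 3 genes of smallest unadjusted p in each of 16 other lists, the 8 nearest the white score and the 8 nearest Ucp1 by Pearson r, markers of other tissues that moved with the 10, and Acot2; Trarg1 was matched under its older name Tusc5 by identifier. Likeness and scores are descriptions without tests. Also tried were pseudocounts of 0.5 and 5, no filter or a filter at 50, TMM and quantile scaling, voom on recovered reads, limma without trend or with sample weights, and leaving out libraries; 2 of these, without Cre HFD 5 and 8 and without Loxp HFD 2 and Cre HFD 5, were added after seeing the data.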

Additional observations from a re-analysis of the deposited data

Results flagged for a closer look

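In 5 of 24 groups of 4 libraries checked, 1 library lay far from the other 3. Its gap to the nearest neighbour was above Dixon's 95% critical share of the range of its group. That share assumes normal values and independent groups, whereas the flagged values were linear counts of genes that partly moved together. The flags are thus a description, and their number cannot be set against chance. Cidec was at 3598 in Cre HFD 5. In Loxp HFD 2, Cidec was at 2507 and Plin1 at 2498. In Loxp HFD 3, Ucp1 was at 133.4 and Cidea at 252.8. All 5 were the highest libraries of their group, and the droplet genes and the brown genes stood out in different Loxp HFD libraries.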

How the results depend on the processing

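No paired analysis was possible because the groups share no replicate numbers (5 to 8 against 1 to 4). Over 20 alternatives the 10 genes gave 197 estimates, of which 196 stayed within the spread between replicates and 1 moved further (Cidea, 0.14 without Cre HFD 5 and 8); Fabp4 passed the threshold in 2 of them, both without Loxp HFD 2. Genes called numbered 2 with no filter, 7 without trend or robust, 1201 with sample quality weights and 1859 without Loxp HFD 2 and Cre HFD 5, and 1 to 2048 with 1 library left out; genes of the other lists called numbered 18 with weights, 24 without Loxp HFD 2 and Cre HFD 5, and 0 to 25 with 1 library left out. With 1 library left out, the white score difference was 0.013 to 0.55, the brown 0.78 to 2.33, the median of other fat-cell markers -0.0097 to 0.34, that of other brown markers 0.052 to 0.30, and r of white with brown 0.094 to 0.63. Without Loxp HFD 3 and 4 the white score difference was -0.027, the median of other fat-cell markers 0.0077 and the Retn difference -0.25. Without Cre HFD 5 and 8 the white score difference was -0.080, the brown -0.45 and the other brown median -0.020; without Loxp HFD 2 and Cre HFD 5 that median was -0.050. The causes were not tested. Elovl3, at 6 to 16 reads, is limited by depth.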
